A study of Rattus norvegicus with 54 samples.

Results

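The miR-126a, miR-221 and miR-222 rows of the rat miRNA count table are the subject here: every row whose name begins with rno-miR-126a-, rno-miR-221- or rno-miR-222-, with both arms of each precursor. The rule used names only and found 6 of the 832 miRNAs in the table: rno-miR-126a-5p, rno-miR-126a-3p, rno-miR-221-3p, rno-miR-221-5p, rno-miR-222-3p and rno-miR-222-5p. The species prefix is left off from here on. Small RNA was sequenced (miR-seq) from 54 samples in 18 groups of 3 male Sprague-Dawley rats, labelled as 9 weeks old. Kidney, plasma and urine were taken 72 h after 1 intravenous dose of cisplatin (5 mg/kg) or saline. Liver, plasma and urine were taken 24 h after 1 oral dose of acetaminophen (APAP, 1250 mg/kg) or its vehicle methylcellulose, and 24 h after 1 oral dose of carbon tetrachloride (CCl4, 1500 mg/kg) or its vehicle corn oil. The label of the urine cisplatin samples states a dose of 1500 mg/kg, which differs from the cisplatin doses in the protocol. All rats, vehicle rats included, were given ketamine, xylazine and acepromazine before they were bled. The day labels are 4 for the cisplatin arm and 2 for the other arms. Sample types of 1 treatment can come from the same rats, so kidney, plasma and urine values may not be independent.

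miR-126 is made from an intron of Egfl7, a gene expressed in the endothelial cells that line blood vessels, and it is known for sustaining vascular growth factor signalling by repressing the inhibitors Spred1 and Pik3r2. Its 5p strand is also active in endothelial cells, where it represses Dlk1. miR-221 and miR-222 are made from neighbouring hairpins on the X chromosome and share a seed, the stretch that pairs with target messages. They repress Kit, the stem cell factor receptor, and the cell cycle inhibitor Cdkn1b, in endothelial cells and in many dividing cells. None of the 3 precursors is confined to endothelium, and the samples are bulk tissue or fluid, in which fewer cells of a type and less RNA per cell cannot be told apart.

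The mature sequences show which members can share targets, and they are given 5′ to 3′ from RefSeq (GRCr8) with the seed (bases 2 to 8) in capitals.
miR-126a-5p: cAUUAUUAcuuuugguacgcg
miR-126a-3p: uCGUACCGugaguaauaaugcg
miR-221-3p: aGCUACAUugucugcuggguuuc
miR-222-3p: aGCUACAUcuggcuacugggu
miR-221-5p: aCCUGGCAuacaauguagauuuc
miR-222-5p: gGCUCAGUagccaguguagau
All 6 members were matched by name. miR-221-3p and miR-222-3p have the same seed, GCUACAU, and the same first 8 bases, and none of the other rat mature miRNAs among the 693 in that table has this seed. The seeds of the other 4 members were each found in no other entry. The members have 21 to 23 bases, and their GC content runs from 38.1% for miR-126a-5p and 39.1% for miR-221-5p to 52.4% for both arms of miR-222.

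miR-126a-5p lies at chr3:29813182-29813202 and miR-126a-3p at chr3:29813219-29813240, both on the plus strand and inside Egfl7 (chr3:29802481-29814966). An antisense miRNA, miR-126b, overlaps miR-126a-5p on the minus strand (chr3:29813177-29813198) and had 2 reads over all 54 libraries. The hairpins of miR-222 and miR-221 lie in that order on the plus strand of the X chromosome with 458 bases between them, inside the long non-coding genes LOC120099382 and LOC120099384. Both hairpins are shown with their mature arms in capitals, to show where each arm lies in its precursor.
Mir222 (chrX:6022621-6022723): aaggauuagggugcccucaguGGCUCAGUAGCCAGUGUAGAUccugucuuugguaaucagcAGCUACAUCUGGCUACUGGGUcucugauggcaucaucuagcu
Mir221 (chrX:6023182-6023290): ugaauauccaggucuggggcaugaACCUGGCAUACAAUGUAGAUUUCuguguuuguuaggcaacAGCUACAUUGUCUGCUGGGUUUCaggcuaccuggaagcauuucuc
Coordinates are those of GRCr8 and not of Rnor_5.0, the build to which the reads had been aligned.

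Library totals, the sum of all counted miRNA reads, ran from 372997 to 3591541 in kidney, 273410 to 2213358 in liver, 21627 to 1290244 in plasma and 377 to 58151 in urine. The summed level of 4 hepatocyte miRNAs (both arms of miR-122 and miR-802) was 19773 to 26889 reads per 1000000 counted reads (CPM) in liver and 13.4 to 49.5 CPM in kidney. RNA was isolated from tissue and from fluids by different procedures, and the number after L in the column labels, read here as a sequencing lane, was 4 for all kidney libraries, 5 or 6 for liver and 1, 2 or 8 for plasma. Sample type therefore cannot be told apart from isolation procedure and lane. The 6 members together made up 0.821% to 1.14% of the reads of a kidney library, 1.58% to 2.16% in liver, 0.0370% to 0.438% in plasma and 0 to 0.359% in urine.

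Among liver, kidney and plasma of vehicle rats miR-126a was highest in liver, lower in kidney and lowest in plasma, in both arms. The level of miR-126a-5p was 16038 ± 1997 CPM in liver (SD, n = 6), 9216 ± 182 CPM in kidney (n = 3) and 1974 ± 1075 CPM in plasma (n = 9). Ordered by mean level, it was miRNA 13 of the 526 with a read in vehicle liver, 21 of 599 in kidney and 54 of 519 in plasma. The level of miR-126a-3p was 2944 ± 220 CPM in liver, 1665 ± 73.6 CPM in kidney and 318 ± 99.4 CPM in plasma. CPM values are shares of reads and are not divided by length, which differs little between mature miRNAs, and how well each miRNA was ligated was not measured.

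**Figure D1:**
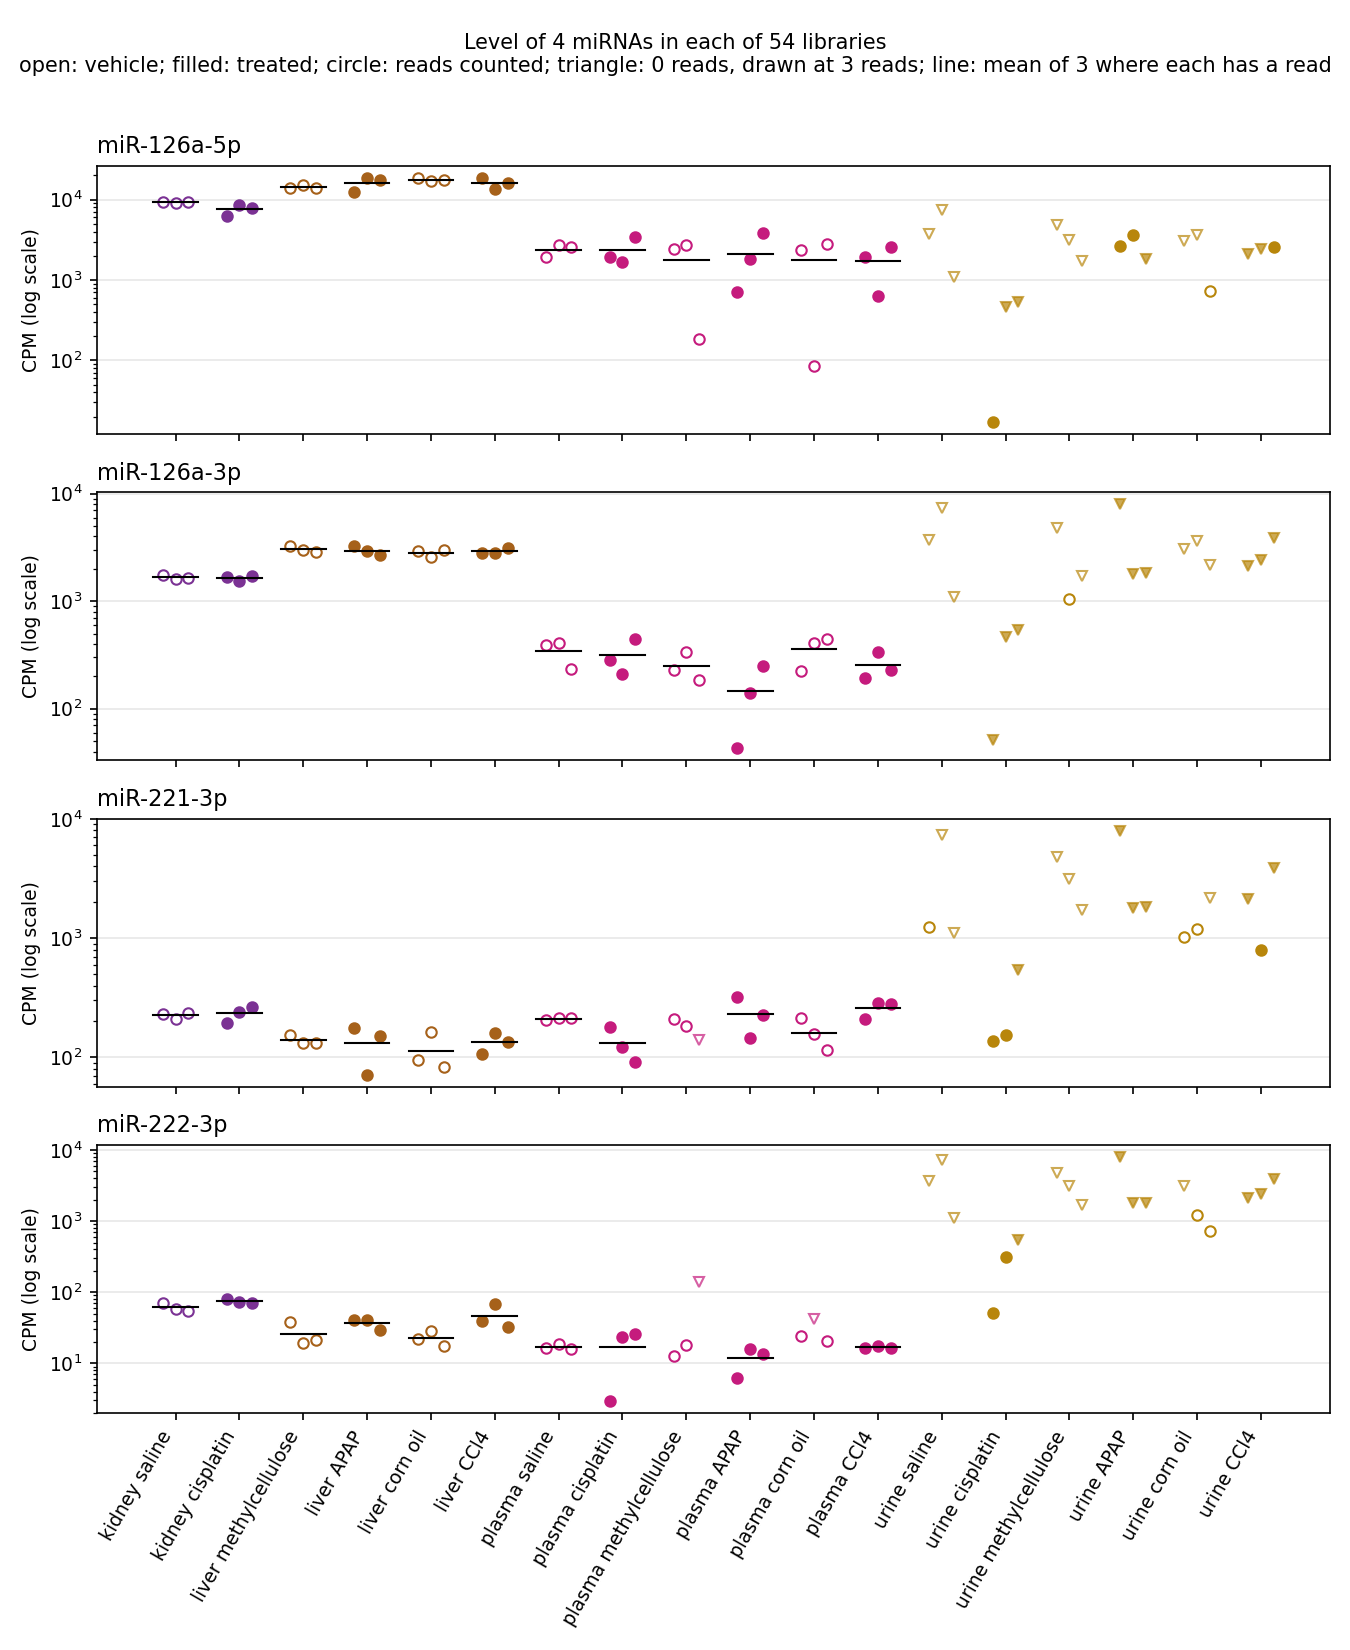
Level of the 4 abundant members in each of the 54 libraries, in CPM on a log axis, by group (open, vehicle; filled, treated). Circles are libraries with a read, triangles are libraries with 0 reads drawn at the level of 3 reads, and lines are the mean of 3 libraries that all have reads; both arms of miR-126a are highest in liver and the plasma libraries methylcellulose 3 and corn oil 2 lie far under the others for miR-126a-5p.

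The 3p arms of miR-221 and miR-222 had a different order, with the highest mean level in kidney. The level of miR-221-3p was 226 ± 13.7 CPM in kidney (SD, n = 3), 127 ± 32.3 CPM in liver (n = 6) and 167 ± 71.4 CPM in plasma (n = 9). The level of miR-222-3p was 61.4 ± 8.75 CPM in kidney, 24.4 ± 7.44 CPM in liver and 14.1 ± 8.63 CPM in plasma. The 5p arms were close to the limit of detection. miR-221-5p was at 7.59 ± 3.11 CPM in kidney, 8.06 ± 4.63 CPM in liver and 1.87 ± 3.83 CPM in plasma. miR-222-5p was at 0.826 ± 0.687 CPM in kidney and 1.50 ± 1.96 CPM in liver, and it had 0 reads in all 9 vehicle plasma libraries.

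Liver and kidney differed in all 4 abundant members, in opposite directions for miR-126a and for the miR-221 and miR-222 pair. Counts were compared with edgeR's quasi-likelihood test after TMM scaling, and p-values were adjusted by the Benjamini-Hochberg method over all miRNAs tested, at a threshold of 0.05. In vehicle liver against vehicle kidney, miR-126a-5p was higher by 0.92 on the log2 scale (SE 0.12, adjusted p = 2.28e-07) and miR-126a-3p by 0.94 (SE 0.09, adjusted p = 2.83e-09). In the same fit miR-222-3p was at -1.25 (SE 0.21, adjusted p = 1.17e-05) and miR-221-3p at -0.70 (SE 0.17, adjusted p = 8.12e-04). All 4 of the members tested were called there, against 79.3% of all 275 miRNAs tested, so a call there does not set the members apart. Vehicle and day also differ between these organs.

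Plasma held less of both arms of miR-126a than either organ. In saline rats miR-126a-5p was at 1907, 2687 and 2550 CPM in plasma and at 9387, 9024 and 9235.5 CPM in kidney. The groups were far apart, with a log2 difference of -2.58 (SE 0.20, adjusted p = 5.93e-08 by edgeR). For miR-126a-3p the difference was -2.95 (SE 0.22, adjusted p = 4.44e-08) and for miR-222-3p -2.52 (SE 0.32, adjusted p = 7.72e-06). The 3 saline plasma libraries held miR-221-3p at 205, 214 and 214 CPM, inside or just under the kidney values of 230, 210 and 236 CPM. Its TMM-scaled difference was -0.72 (SE 0.21, adjusted p = 0.00633), whereas scaling by total counts gave -0.09 (adjusted p = 0.659) and equal depth -0.53 (adjusted p = 0.0773), so its size and call depend on the setting, while the estimate was below 0 in all 13 alternatives. All 4 members tested were called lower in plasma, where 45.7% of the 278 miRNAs tested were called lower and 84.9% were called in either direction. The split of these calls moved with the scaling, from 109 higher and 127 lower to 135 higher and 107 lower with total counts.

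Against liver, plasma miR-126a-5p differed by -3.69 on the log2 scale (SE 0.63, adjusted p = 8.71e-05 by edgeR, n = 6 against 6) and miR-126a-3p by -3.81 (SE 0.24, adjusted p = 3.29e-09). Both were called in each of the 20 alternatives. miR-221-3p was at 208, 183 and 0 CPM in methylcellulose plasma and at 214, 156 and 114 CPM in corn oil plasma. In liver it was at 155, 132 and 132 CPM with methylcellulose and at 95.1, 164 and 83.0 CPM with corn oil. The values overlapped, and the difference of -0.10 (SE 0.34, adjusted p = 0.774) was not called. It ran from -1.06 to 0.42 over 19 alternatives and was called lower in 10 of them, among them DESeq2 (-0.69, adjusted p = 0.00786), the fits that left out 1 liver library (-1.06 to -0.82) and the fit without plasma corn oil replicate 2 (-0.95, adjusted p = 0.00762). Of 3 members tested in this comparison 2 were called lower, against 37.8% of all 233 miRNAs and 75.1% called in either direction. Here the split over all miRNAs was 87 higher and 88 lower, 72 and 121 with RLE factors (the scaling of DESeq2), and 111 and 70 with total counts.

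Urine libraries were too shallow for most comparisons. The 18 urine libraries held 87823 reads in all, of which 13 were miR-221-3p (in 6 libraries), 11 miR-126a-5p (in 5), 7 miR-222-3p (in 4), 1 miR-126a-3p, 1 miR-222-5p and 0 miR-221-5p. Even so, miR-126a-5p was scarce in urine: the 3 saline libraries had 0 of 3948 reads, where the kidney level would give 36.3 reads. Reads were pooled over the 3 rats, and 2725 of the 3948 came from 1 library. Taking 3 reads over the group as the floor (760 CPM), the bound for miR-126a-5p was 12.1-fold lower in urine than in kidney of saline rats. Against plasma of saline rats the bound was 3.19-fold lower at that floor. The exact upper limit for 0 of 3948 reads was 934 CPM, which is above the floor and would give smaller folds. These bounds cover counting error only, not differences between rats. In methylcellulose rats the bound for miR-126a-5p was 15.9-fold lower in urine than in liver at a floor of 901 CPM (0 of 3330 reads, exact upper limit 1107 CPM). Corn oil urine had 1 of 3177 reads, so no fold bound was set there. Its exact interval of 7.97 to 1752 CPM ends under the pooled corn oil liver level of 17732 CPM. For miR-126a-3p the floor of 760 CPM gave a bound of 2.20-fold lower in urine than in kidney of saline rats. Both arms were called lower in urine against kidney by edgeR, where 9.09% of 198 miRNAs were called lower and 11.6% in either direction (5 higher and 18 lower, but 10 and 16 with RLE factors and 21 and 11 with total counts). Against plasma no member had enough urine reads to be tested, where 58.9% of 73 miRNAs were called. The fitted sizes are not given because the urine counts are 0.

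The members had no single order across the urine groups. In the deepest group, cisplatin, miR-221-3p had 8, 1 and 0 reads, miR-222-3p 3, 2 and 0 reads and miR-126a-5p 1, 0 and 0 reads. Over the 70230 reads of that group this gave 128 CPM for miR-221-3p (exact 95% interval 58.6 to 243 CPM), 71.2 CPM for miR-222-3p (23.1 to 166 CPM) and 14.2 CPM for miR-126a-5p (0.360 to 79.3 CPM). The interval of miR-221-3p contains its mean level in vehicle kidney, while the interval of miR-126a-5p ends far under the lowest kidney value of 6268 CPM. After APAP, miR-126a-5p had 7 reads and both miR-221-3p and miR-222-3p had 0, of 3697 reads in all. Of the reads after cisplatin 58151 came from 1 library, and intervals cover counting error only.

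Ratios of 2 members within a library need no scaling. The 5p arm of miR-126a exceeded the 3p arm by a median of 5.59-fold in saline kidney, 5.46-fold in vehicle liver and 6.60-fold in vehicle plasma. On the log2 scale the kidney libraries lay within 2.42 and 2.50, the vehicle liver libraries within 2.10 and 2.74, and the vehicle plasma libraries between -2.18 and 3.44. No difference between sample types was found for this ratio by exact permutation tests (2-sided, adjusted p = 0.587 for plasma against kidney and plasma against liver, and 0.833 for liver against kidney). In liver the 3 corn oil rats (5.89 to 6.66-fold) lay above the 3 methylcellulose rats (4.29 to 5.06-fold), with no overlap and with no test, since that pattern was noticed in the values.

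**Figure D2:**
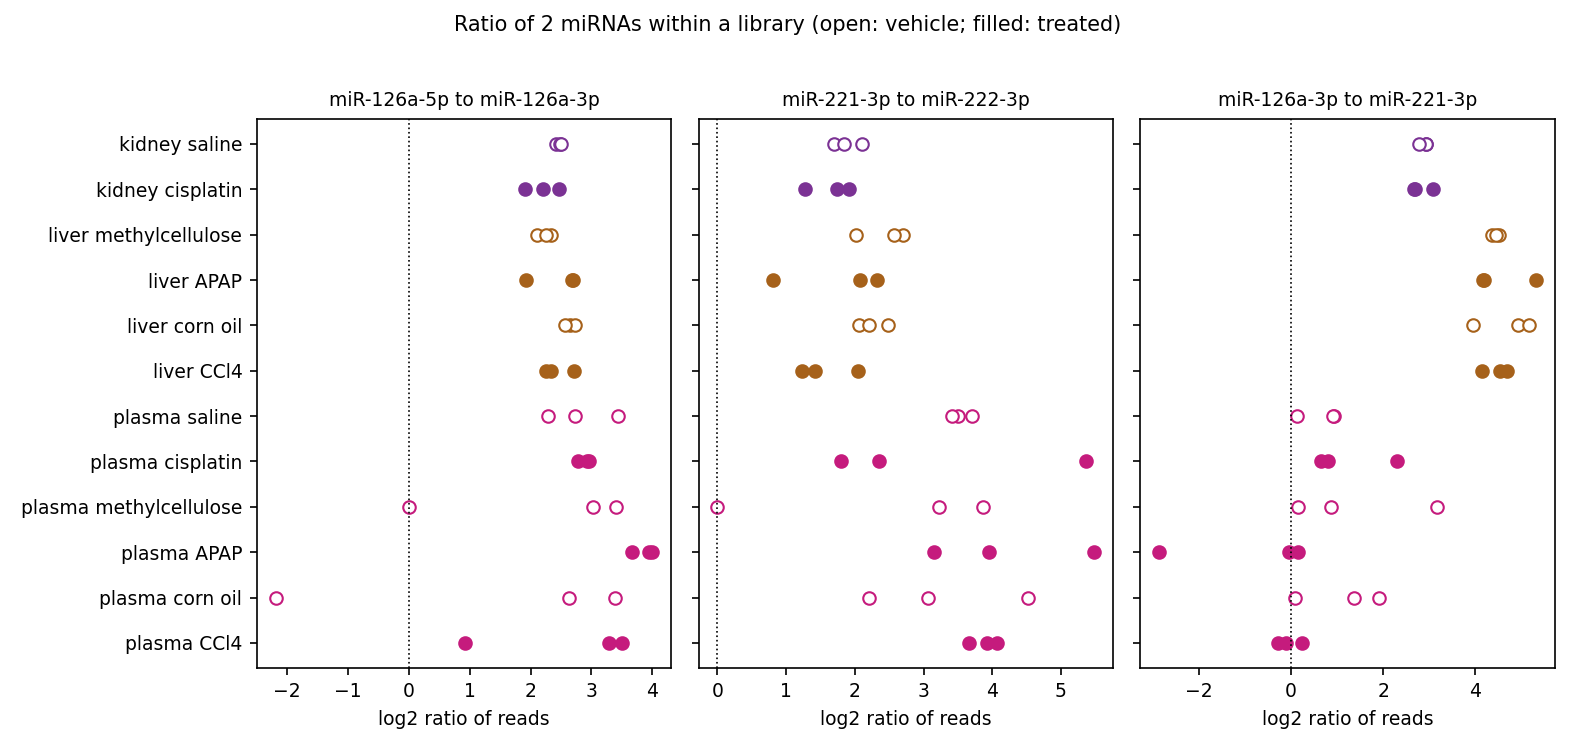
Log2 ratio of the reads of 2 members within each kidney, liver and plasma library (open, vehicle; filled, treated; 1 point per library, 0.5 reads added to each count). The ratio of the arms of miR-126a is tight in kidney and liver, and 3 plasma libraries (methylcellulose 3, corn oil 2 and CCl4 2) lie at 0.93 or less.

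In 3 plasma libraries the arms of miR-126a stood apart. Methylcellulose 3 had 4 reads of each arm (log2 ratio 0.00), corn oil 2 had 6 reads of the 5p arm and 29 of the 3p arm (-2.18), and CCl4 2 had 288 and 151 reads (0.93). In the other 15 plasma libraries the 5p arm exceeded the 3p arm by 4.87 to 16.0-fold. In the same 3 libraries miR-126a-5p was among the lowest 2 of 119 miRNAs in its deviation from the plasma median, and the shift of its arm ratio ranked 2, 2 and 1 by size among 42 precursors with both arms counted. The level of miR-126a-3p in them was 185, 410 and 334 CPM, inside the range of the other 15 (42.9 to 449 CPM). Methylcellulose 3 is the shallowest plasma library and corn oil 2 is also shallow (21627 and 70736 reads), while CCl4 2 has 452187 reads; the part of depth was not tested.

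The ratio of miR-221-3p to miR-222-3p was 3.57-fold (median) in saline kidney, 5.07-fold in vehicle liver and 10.6-fold in vehicle plasma, where it ran from 1.0 to 23.0-fold over 9 libraries. Both ends of that range are set by the 0.5 reads added. Methylcellulose 3 had 0 reads of either miRNA, and corn oil 2 had 11 of miR-221-3p and 0 of miR-222-3p. With both libraries included, plasma and liver of the same vehicles were not told apart (a log2 difference of 0.47, exact permutation p = 0.522, adjusted p = 0.587). In saline rats all 3 plasma libraries (10.6 to 13.0-fold) lay above all 3 kidney libraries (3.23 to 4.30-fold), and the exact p of 0.1 is the smallest that 3 against 3 can give (adjusted p = 0.18 over 9 ratio tests). Liver exceeded kidney by 0.46 on the log2 scale (exact permutation p = 0.0476, adjusted p = 0.143), with 4 of 6 liver libraries above every kidney library. The ratio of miR-126a-3p to miR-221-3p separated the sample types most: its mean log2 value was 4.56 ± 0.43 in liver (SD, n = 6), 2.88 ± 0.09 in kidney (n = 3) and 1.26 ± 1.17 in plasma of the same vehicles as liver (n = 6). Plasma was lower than liver by -3.30 (exact permutation p = 0.00216, adjusted p = 0.0195, lower in 6 of 6 libraries), and this was the only one of the 9 ratio tests with an adjusted p under 0.05. It was no longer past the threshold with a smaller pseudocount (-2.99, adjusted p = 0.0584). Plasma methylcellulose 3 had 4 reads of miR-126a-3p and 0 of miR-221-3p, so its ratio depends on the pseudocount. That value is also in the plasma mean. In pairs by replicate number the difference was -3.30 (adjusted p = 0.188). With 6 pairs that test has too few regroupings to pass the adjusted threshold, so it cannot decide. Liver was above kidney in 6 of 6 libraries (1.68, exact permutation p = 0.0119, adjusted p = 0.0536).

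No member was called changed by any of the 3 agents in the reported fits. The paper, with its own DESeq2 analysis and a cutoff on fold change and P, lists miR-221 in plasma and miR-126a in urine as raised after APAP. Over the 9 comparisons of a treated group with its vehicle (3 rats against 3), edgeR tested 22 values of the members in 6 comparisons, called 0 at the adjusted threshold and found 2 with an unadjusted p under 0.05. DESeq2 called 1, miR-221-3p in plasma after APAP. The other 32 values, including every one in urine, had too few reads to be tested. Over all miRNAs the share called ran from 0.433% to 26.9% in these 6 comparisons. Without overlap between the 3 treated and 3 vehicle CPM values were 4 of the 22, 2 of them in kidney. Over these 6 comparisons 10.8% to 61.2% of all miRNAs did not overlap. In plasma miR-222-3p had 49 reads over the 6 libraries of the cisplatin comparison, 30 for APAP and 61 for CCl4, and was not tested.

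**Figure D3:**
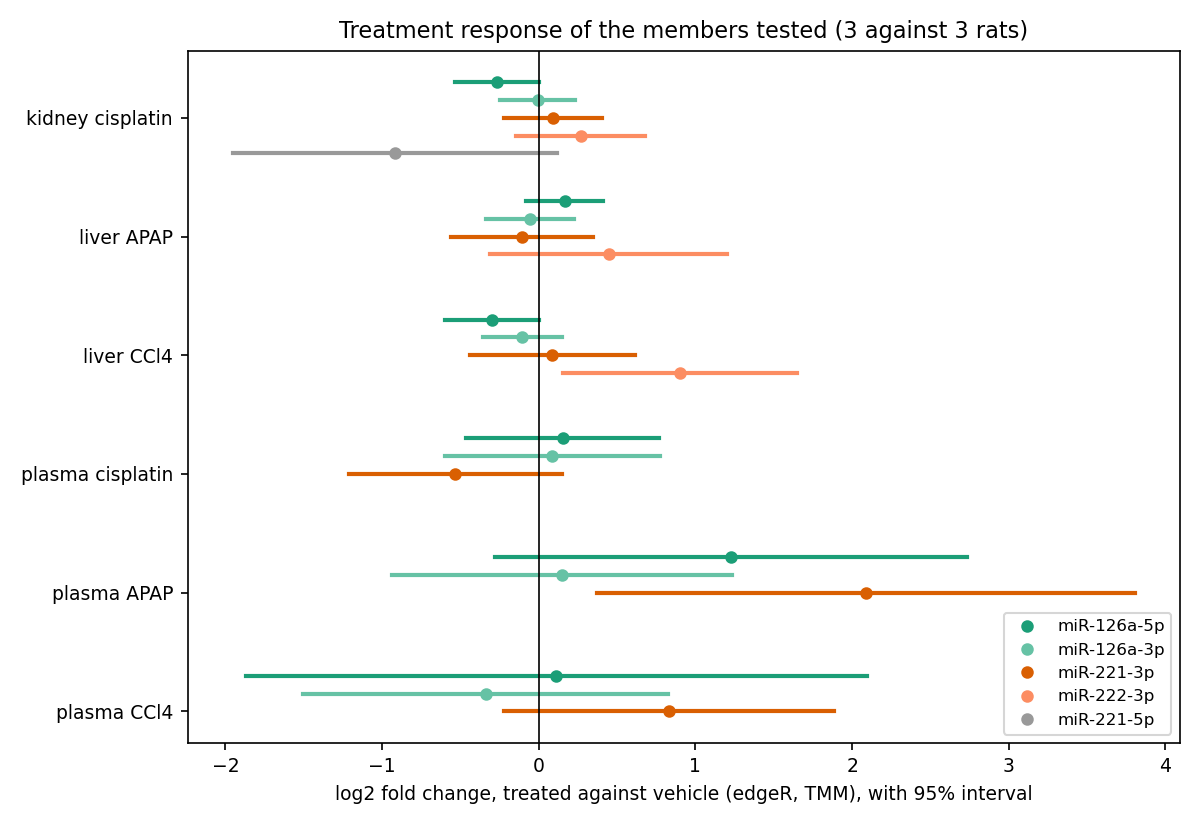
Log2 fold change of each member tested, treated against vehicle, from edgeR with TMM scaling (points) and its 95% interval (lines), 3 rats against 3. The intervals of miR-126a-5p and miR-126a-3p are narrower in kidney and liver than in plasma; the intervals of miR-222-3p in liver after CCl4 and of miR-221-3p in plasma after APAP lie above 0, and neither passed the adjusted threshold.

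In kidney after cisplatin, a nephrotoxic cancer drug, miR-126a-5p was at 6268, 8572 and 7956 CPM against 9387, 9024 and 9235.5 CPM with saline. All 3 treated rats were under all 3 saline rats, and the log2 fold change was -0.27 (SE 0.12, 95% interval -0.53 to 0.00, adjusted p = 0.71 by edgeR). Its partner arm miR-126a-3p was at 1665, 1544 and 1717 CPM against 1749, 1614 and 1632 CPM, with a fold change of -0.01 (interval -0.25 to 0.23). The arms therefore gave different estimates from 1 precursor, and the 5p to 3p ratio was 3.76, 4.63 and 5.55-fold after cisplatin against 5.37 to 5.66-fold with saline.

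The 3p arms of miR-221 and miR-222 had estimates near 0 or slightly above it in kidney. miR-222-3p was at 80.4, 72.2 and 70.1 CPM after cisplatin and at 71.2, 58.7 and 54.3 CPM with saline, which overlap (0.27, SE 0.19, adjusted p = 0.862 by edgeR). miR-221-3p had a fold change of 0.09 (interval -0.22 to 0.41). miR-221-5p was at 2.68, 3.65 and 3.15 CPM against 5.73, 5.85 and 11.2 CPM, with 1, 12 and 4 reads against 19, 21 and 7. It was lower in all 3 treated rats and was not called (-0.92, SE 0.47, adjusted p = 0.862). Of the 5 members tested 0 were called, against 1.74% of 344 miRNAs, and 2 did not overlap, against 14.2%. The summed level of 4 red blood cell miRNAs was 4409 to 5885 CPM after cisplatin and 4788 to 5697 CPM with saline, and 2 of the 4 were called lower; their part in the values of miR-126a-5p and miR-221-5p was not tested.

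Liver after APAP, the analgesic whose overdose kills hepatocytes, differed little from its vehicle in these miRNAs. miR-126a-5p was at 12340, 18544 and 17616 CPM after APAP and at 13884, 15302 and 13788 CPM with methylcellulose (0.16, SE 0.12, adjusted p = 0.685 by edgeR). miR-126a-3p had a log2 fold change of -0.06 (interval -0.34 to 0.22). miR-222-3p was at 40.2, 40.6 and 29.6 CPM against 37.6, 19.6 and 21.5 CPM, which overlap (0.45, SE 0.38, adjusted p = 0.734). For miR-221-3p the values were 176, 71.6 and 151 CPM against 155, 132 and 132 CPM (-0.11, SE 0.23, adjusted p = 0.88). The fit called 0 of 4 members, against 3.21% of 249 miRNAs, and 0 did not overlap, against 13.3%.

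In liver after CCl4, a solvent that injures the centre of the lobule, miR-222-3p was the member with the largest estimate. It was at 39.7, 67.6 and 32.5 CPM (24, 140 and 72 reads) after CCl4 and at 21.9, 28.5 and 17.5 CPM (9, 13 and 12 reads) with corn oil. All 3 treated rats were above all 3 vehicle rats. The log2 fold change was 0.90 (SE 0.35, 95% interval 0.16 to 1.65, unadjusted p = 0.0204, adjusted p = 0.155 by edgeR), and it was not called. Without CCl4 replicate 2 it was 0.56 (adjusted p = 0.483). With lane as a term it was 0.76 and rested on CCl4 replicate 1, the only CCl4 liver in the corn oil lane. Its seed partner miR-221-3p was at 108, 159 and 135 CPM against 95.1, 164 and 83.0 CPM (0.09, SE 0.25, adjusted p = 0.84).

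The estimates for both arms of miR-126a in liver after CCl4 were small. miR-126a-5p was at 18486, 13496 and 15903 CPM against 18414, 17084 and 17755 CPM (-0.30, SE 0.14, adjusted p = 0.237 by edgeR). With lane as a term this was -0.02 and rested on CCl4 replicate 1, the only CCl4 liver in the corn oil lane. miR-126a-3p was at 2812, 2823 and 3156 CPM against 2930, 2564 and 3013 CPM (-0.10, interval -0.36 to 0.15), and its estimate was above 0 in 2 of 15 alternatives. The fit called 0 of 4 members, against 2.76% of 254 miRNAs, and 1 did not overlap, against 24.8%. The summed level of 7 platelet and white blood cell miRNAs was 14788 to 17640 CPM in these CCl4 livers and 12008 to 13009 CPM with corn oil, and 2 of the 7 were called higher; their part in the miR-222-3p values was not tested.

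Plasma after cisplatin held miR-126a at levels like those of saline plasma. miR-126a-5p was at 1956, 1656 and 3421 CPM (0.15, SE 0.29, adjusted p = 0.925 by edgeR) and miR-126a-3p at 284, 212 and 449 CPM against 390, 405 and 234 CPM (0.09, SE 0.32, adjusted p = 0.955). miR-221-3p was at 180, 122 and 91.1 CPM against 205, 214 and 214 CPM, lower in all 3 treated rats. Its log2 fold change was -0.53 (SE 0.32, interval -1.21 to 0.15, adjusted p = 0.548). With lane as a term it was -0.11 and rested on cisplatin replicate 1 (180 CPM), the only cisplatin plasma in the saline lane. The fit called 0 of 3 members, against 4.05% of all miRNAs tested, and 1 did not overlap, against 15.3%. The red blood cell miRNAs summed to 14295 to 19131 CPM after cisplatin and 24176 to 25047 CPM with saline, and 3 of the 4 were called lower; their part in the miR-221-3p values was not tested.

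In plasma after CCl4 miR-221-3p was at 211, 285 and 281 CPM against 214, 156 and 114 CPM with corn oil. The groups overlap by 1 pair of values, and the fold change of 0.83 (SE 0.48, interval -0.22 to 1.89, adjusted p = 0.584 by edgeR) was not called. miR-126a-5p was at 1907, 637 and 2595 CPM against 2381, 84.8 and 2784 CPM, so each group holds 1 of the libraries that stand apart (0.11, SE 0.89, adjusted p = 0.988). miR-126a-3p was at 195, 334 and 229 CPM against 226, 410 and 447 CPM (-0.34, SE 0.52, adjusted p = 0.89). The fit called 0 of 3 members, against 0.433% of 231 miRNAs, and 0 did not overlap, against 10.8%.

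Plasma after APAP gave the largest estimate for a member, with a wide interval. miR-221-3p was at 319, 145 and 226 CPM (156, 111 and 100 reads) after APAP and at 208, 183 and 0 CPM (65, 51 and 0 reads) with methylcellulose. As shares of reads the groups overlap. The composition of plasma differed strongly between the groups: TMM factors were 0.35, 0.92 and 0.89 after APAP and 1.50, 1.63 and 1.41 with methylcellulose. After that scaling the values were 911, 158 and 253 against 138, 112 and 0 scaled CPM, which do not overlap. APAP replicate 1 was far above the other APAP rats. This scaling raises the APAP values of every miRNA relative to methylcellulose. How many of all miRNAs did not overlap after it was not counted, so this does not set miR-221-3p apart.

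The fitted fold change of miR-221-3p was 2.09 (SE 0.78, 95% interval 0.37 to 3.80, unadjusted p = 0.0212, adjusted p = 0.066 by edgeR). It was called in 7 of 15 alternatives, with estimates from 0.50 to 2.50, and was above 0 in all of them. With DESeq2 it was 2.15 (adjusted p = 0.0146), and with total counts 0.53 (adjusted p = 0.49). It fell to 0.85 (adjusted p = 0.106) without APAP replicate 1, to 1.28 (adjusted p = 0.113) without methylcellulose replicate 3 and to 0.50 (adjusted p = 0.247) without both. Without APAP replicate 2 it was 2.50 (adjusted p = 0.00188). Whether it was called therefore depended on the scaling and on these libraries. In this comparison 26.9% of 227 miRNAs were called and 61.2% did not overlap in CPM, while 0 of 3 members were called and 0 did not overlap. Over all miRNAs 49 were called higher and 12 lower, but 26 higher and 49 lower with total counts.

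**Figure D4:**
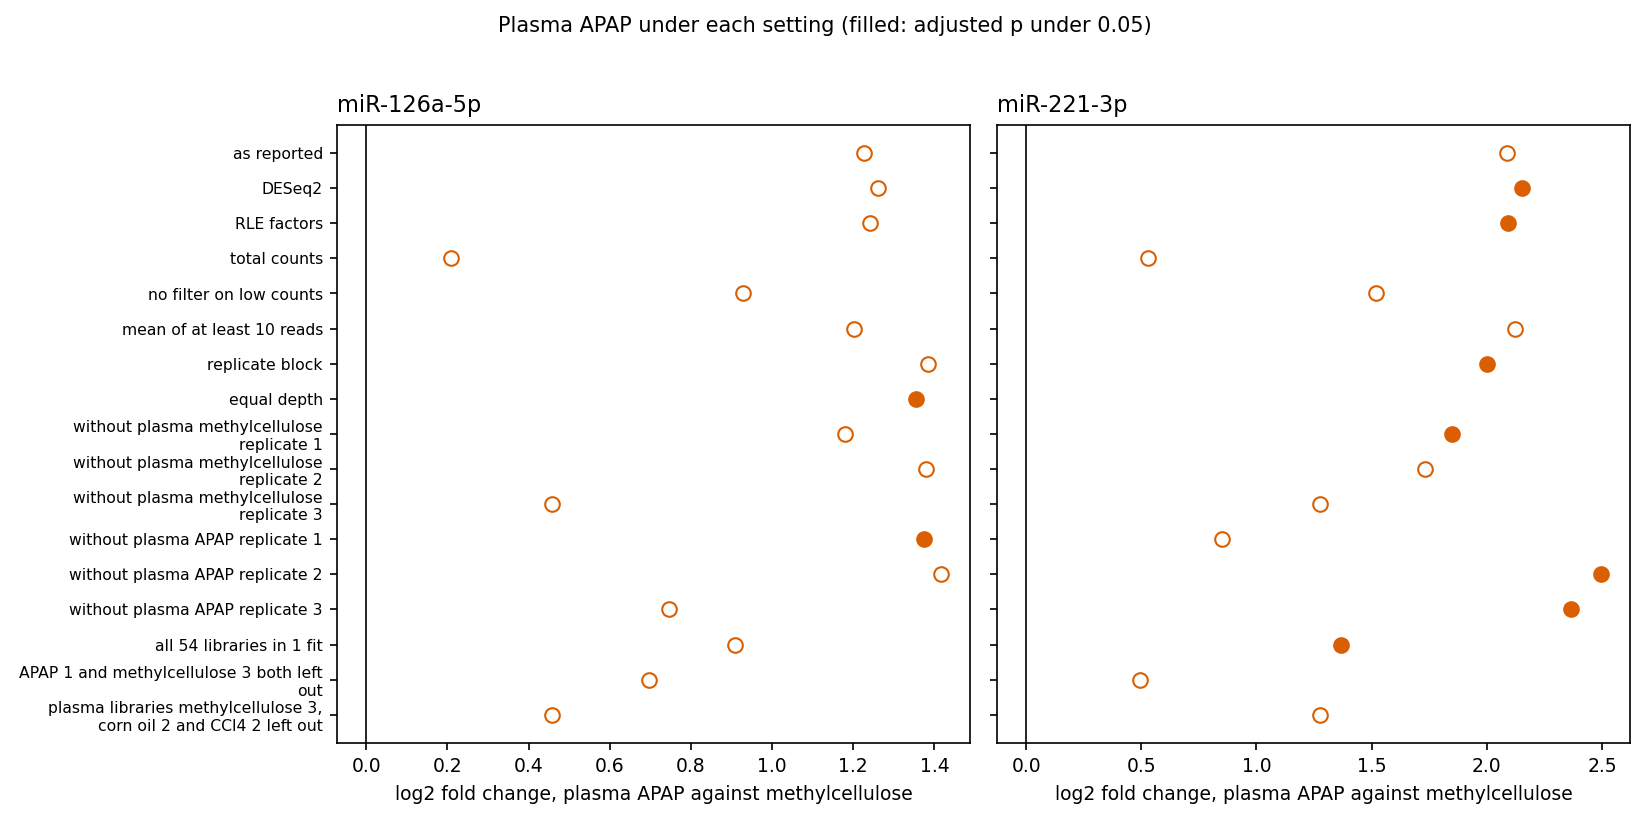
Log2 fold change of miR-126a-5p and miR-221-3p in plasma, APAP against methylcellulose, under each setting of the analysis (1 point per setting; filled, adjusted p under 0.05). Every estimate is above 0, 2 of 16 alternatives are called for miR-126a-5p and 7 of 15 for miR-221-3p, and total counts or leaving out APAP 1 and methylcellulose 3 gives the small estimates of miR-221-3p.

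miR-126a-5p in plasma was at 700, 1811 and 3884 CPM after APAP and at 2448, 2742 and 185 CPM with methylcellulose, which overlap widely. Its fold change was 1.23 (SE 0.69, interval -0.28 to 2.73, adjusted p = 0.213 by edgeR), and 0.46 (adjusted p = 0.471) without methylcellulose replicate 3. miR-126a-3p was at 42.9, 142 and 251 CPM against 230, 336 and 185 CPM (0.15, SE 0.50, adjusted p = 0.855). Its estimate was below 0 in 8 of 15 alternatives, from -0.85 with total counts to 0.31, so no direction is given. The ratio of the arms needs no scaling. In it the 3 APAP rats (12.7, 15.4 and 16.0-fold) were above all 15 other plasma libraries, of which the highest was 11.3-fold. This was noticed in the values and not tested. By size, the shift of this ratio ranked 11, 7 and 8 among 42 precursors in APAP 1, 2 and 3. Other precursors therefore shifted more in each of these libraries.

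The hepatocyte miRNAs moved with the APAP group in plasma. The summed level of the 4 hepatocyte miRNAs was 2916 to 3253 CPM after APAP and 0 to 89.5 CPM with methylcellulose, and 4 of 4 were called higher. The summed level of 7 platelet and white blood cell miRNAs was 25985 to 113879 CPM after APAP and 192360 to 238544 CPM with methylcellulose, although 0 of the 7 were called. The part of these shares in the values of miR-126a and miR-221 was not tested.

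In urine after APAP, miR-126a-5p had 1, 6 and 0 reads of 377, 1671 and 1649, against 0 of 3330 reads with methylcellulose. The pooled level of 1893 CPM has an exact 95% interval of 762 to 3897 CPM. With methylcellulose 0 reads allow 901 CPM at the floor of 3 reads, and the exact upper limit is 1107 CPM. By an exact permutation test of the CPM values over rats p was 0.4. In the other urine groups miR-126a-5p had 0 to 2 reads, so a change was not detectable at this depth. The only members with reads in urine after CCl4 were miR-126a-5p (2 reads) and miR-221-3p (1 read).

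The responses to APAP and CCl4 were compared by an interaction term. In liver, miR-126a-5p had a positive estimate after APAP and a negative one after CCl4. The estimates differed by 0.45 on the log2 scale (SE 0.21, interval 0.01 to 0.89, unadjusted p = 0.0477, adjusted p = 0.675 by edgeR). Its mean level was 16167 CPM after APAP and 15961.5 CPM after CCl4, but 14324 CPM with methylcellulose and 17751 CPM with corn oil. The values with methylcellulose and with corn oil did not overlap, and the part of the vehicles was not tested. Lane, which differed among the CCl4 livers, was not a term in this fit. In plasma the difference was 1.36 for miR-221-3p (interval -0.69 to 3.41, adjusted p = 0.567) and 1.04 for miR-126a-5p (interval -1.60 to 3.68, adjusted p = 0.775). Of the 7 member values tested in liver and plasma 0 were called by edgeR, where 0% of 262 and 0% of 255 miRNAs were called, 1 had an unadjusted p under 0.05 and DESeq2 called 0.

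Other miRNAs known from endothelium were counted in the same fits. The list holds 16 miRNAs of the miR-10 and miR-100 families, the miR-23, miR-24 and miR-27 clusters, the miR-17-92 cluster, miR-130a-3p and miR-126b, many of which other cells also express, and all 16 were in the table. None of 15 tested was called in kidney after cisplatin (median log2 fold change 0.05, as for all miRNAs), in liver after APAP (0.11, against 0.01 for all) or in plasma after cisplatin (0.06, against -0.03) and CCl4 (0.27, against 0.04). Over all miRNAs these comparisons called 1.74%, 3.21%, 4.05% and 0.433%. In liver after CCl4 1 of 15 was called, against 2.76% of all: miR-10a-5p at -0.54 (SE 0.14, adjusted p = 0.0463 by edgeR). In plasma after APAP 2 of 14 were called higher, miR-23b-3p at 2.71 (SE 0.71, adjusted p = 0.015) and miR-27b-3p at 1.59 (SE 0.53, adjusted p = 0.0461), against 21.6% of all miRNAs tested called higher there, with a list median of 0.37 against 0.21 for all.

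The same pair fell in urine after cisplatin, where depth allowed 5 of the 16 to be tested: miR-23b-3p at -2.85 (SE 0.50, adjusted p = 0.00146 by edgeR) and miR-27b-3p at -1.91 (SE 0.40, adjusted p = 0.00324), against 11.6% of 43 miRNAs called lower. Vessel wall miRNAs, a list of 6 from smooth muscle and pericytes (miR-143-3p, both arms of miR-145 and miR-199a, and miR-214-3p), had 0 calls in each kidney, liver and plasma comparison with a vehicle, with list medians from -0.37 to 0.14. All 6 were called lower in plasma than in kidney (median -2.15), against 45.7% of all miRNAs, as were 7 of 7 miRNAs of kidney epithelium. The other endothelial list had 8 of 15 called higher and 7 lower there. miR-10a-5p is on both the kidney epithelium list and the endothelial list, and its lower call is counted in each.

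The miRNAs whose log2 CPM followed the members most closely over the 36 kidney, liver and plasma libraries were ranked among 293 miRNAs with a mean of at least 10 reads. For miR-126a-3p they were miR-3084a-3p, miR-203a-3p, miR-3084b-3p with miR-3084d (which are copies in these counts) and miR-145-5p, with Pearson's r of 0.94 each. miR-145-5p was also alike within plasma (r = 0.65, 18 libraries) and within liver (r = 0.77, 12 libraries), whereas miR-3084a-3p was not (r = 0.19 and -0.39). For miR-221-3p they were miR-374-5p (0.90), miR-345-3p (0.88), miR-582-3p (0.74), miR-33-5p (0.64) and miR-200a-3p (0.63). Among the members themselves, the arms of miR-126a had r = 0.82 (rank 16 for miR-126a-3p). For miR-126a-5p and miR-222-3p r was 0.79 (rank 5 for miR-222-3p). The seed partners miR-221-3p and miR-222-3p had r = 0.48 (rank 21 for miR-221-3p). Within plasma r was 0.15, 0.85 and 0.58 for these pairs in that order, and within liver it was -0.49, -0.32 and 0.31. The arms of miR-126a were thus not alike within either sample type. These are descriptions over libraries that share sample type and depth.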

How the data were processed

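miR-seq counts of 54 libraries were analysed, 3 per group in 18 groups. The authors clipped adaptors, aligned reads of 36 bases with OSA to Rnor_5.0 and miRBase with 2 mismatches, discarded reads that mapped to over 10 places in the genome, and then deposited raw counts per mature miRNA. Lost reads were not recovered, and the labels give no UMI. Every column was matched to a sample.

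Counts were tested with edgeR 4.0.16 in R 4.3.3 (TMM, filterByExpr with a minimum count of 10 and minimum total of 15, glmQLFit, 2-sided glmQLFTest) in 17 comparisons, with library totals as depth and Benjamini-Hochberg adjustment within a comparison at 0.05. The standard error is the log2 fold change over the square root of F. Alternatives were DESeq2 1.42.0, RLE factors, total counts, 2 other filters, equal depth, lane, a replicate block, all libraries in 1 fit and leaving out libraries. Only in kidney cisplatin did same-numbered samples deviate together in every pair (correlation of deviations 0.26 to 0.38 in 3 pairs). No label says that these samples are paired, and the reported fit has no block. With a replicate block 10 miRNAs were called there, against 6 as reported, and no member was called. Ratios (0.5 reads added) had 9 exact permutation tests. Intervals of urine levels are exact (Clopper-Pearson, 95%), and a count of 0 allows 3 reads. Replicates are labelled as separate rats. Fits were tested on simulated data. Tables used Python 3.11.15, pandas 2.3.3, NumPy 2.4.6 and SciPy 1.17.1.

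The members and lists were chosen with earlier results of these data known. Named are the 6 members, the 5 miRNAs most like miR-126a-3p and miR-221-3p, and called members of the endothelial and vessel wall lists. The remaining lists are platelet and white blood cell, red blood cell (miR-486 not in the table used), hepatocyte and kidney epithelium. The kidney epithelium list had 3 of 4 tested called higher in plasma after APAP (21.6% of all miRNAs) and 1 of 6 lower in liver after CCl4 (2.76% of all called). That 1 is miR-10a-5p, which is also on the endothelial list and is the same call as the 1 given for it.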

Additional observations from a re-analysis of the deposited data

Results flagged for a closer look

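The level of miR-221-3p in plasma methylcellulose 3 was 0 CPM, far from the other 8 vehicle plasma libraries, of which the nearest was at 114 and the highest at 214 CPM. The gap made up 0.533 of the range. This library has 21627 reads, and 3 reads would be 139 CPM. Of 13 such groups examined 1 stood out, and chance gives about 1 in 20.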

How the results depend on the processing

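Of 317 values of the members under alternatives in the 9 treatment comparisons, 9 were called, all in plasma after APAP, and 35 had the other sign without a call. The number of members called in plasma after APAP was 0, and 1 with DESeq2, with RLE factors, with a replicate block, at equal depth and with all 54 libraries in 1 fit, and 0 to 1 when 1 replicate was left out. The block gave 2.00 for miR-221-3p (adjusted p = 0.0167); same-numbered plasma samples did not deviate together (correlations -0.24 to 0.05), and the block changed no call of a member in another comparison with a vehicle. In plasma against liver 2 members were called, and 5 with no filter on low counts. In urine against kidney 2 were called, 0 at equal depth and 1 to 2 with 1 replicate left out. miR-126a-5p was called in each of the 12 alternatives that tested it, and miR-126a-3p in each of 9. The lower counts there are of members that were not tested. In urine against plasma 0 were called because none was tested, 2 with no filter, 1 with a mean of at least 10 reads and 0 to 1 with 1 replicate left out, each of the latter being miR-126a-5p, lower in urine. The ratio of miR-126a-3p to miR-221-3p in plasma against liver was -2.99 with a smaller pseudocount (adjusted p = 0.0584). In pairs by replicate block it was -3.30 (adjusted p = 0.188), with too few regroupings to pass the threshold. Leaving out plasma methylcellulose 3, corn oil 2 and CCl4 2 was chosen after seeing the data. It called no member in plasma after APAP or CCl4 and was not used for the ratio of the miR-126a arms, which singled them out. Over all miRNAs, scaling moved the median log2 fold change in plasma after APAP from 0.21 to -0.92 with total counts. Counts of all miRNAs called ran from 34 to 79 in plasma after APAP (61 as reported), 3 to 10 in kidney after cisplatin (6), 4 to 33 in plasma after cisplatin (9), 2 to 9 in liver after APAP (8), 2 to 10 in liver after CCl4 (7) and 0 to 29 in plasma after CCl4 (1). Urine depth limits all 6 members, and plasma depth limits both arms of miR-222 and miR-221-5p. The causes were not tested.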
